A study of Mus musculus with 17 samples.

Results

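The 7 genes described here are markers of the pancreatic duct, *Krt19*, *Krt7*, *Krt8*, *Krt18*, *Cftr*, *Spp1* and *Muc1*, measured by bulk RNA-seq of isolated mouse islets. They were chosen by name with earlier results of these data known, and each was followed in 17 mice of 6 groups. Each sample, labelled a biological replicate, is called a mouse here. They are 7 of the 78239 gene identifiers of a first table of 12 mice and of the 73212 of a second table of 5 mice. All 7 were among the 19137 and 20167 genes abundant enough to be tested.

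All mice were male. The first table held *Pax4* R192H mice, which are homozygous for R200H in mouse *Pax4*, the change that corresponds to human R192H, and their wildtype littermates on the C57BL6/N background. Each genotype had 3 mice fed standard chow (SCD) until 12 weeks of age and 3 given a high-fat diet (HFD) for 4 weeks, aged 16 weeks. Every difference between diets in this table is therefore also a difference in age. The second table held 3 *Pax4* βiKO mice, which carry *Pax4* floxed/floxed and *Pdx1-CreERT2*, and 2 control mice that were floxed/floxed without Cre. Both groups received tamoxifen at 7 to 9 weeks and were 20 weeks old after 8 weeks of HFD. *Pdx1* drives the Cre, and since the control mice lack it, the effect of Cre and that of *Pax4* loss cannot be told apart.

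The pancreatic duct is the epithelial tube that carries digestive enzymes from acinar cells to the gut and adds bicarbonate-rich fluid. Duct cells contain keratin filaments, which form from pairs of an acidic (type I) and a basic (type II) keratin. Among the genes here *Krt18* and *Krt19* encode type I and *Krt7* and *Krt8* type II keratins. *Krt8* and *Krt18* are the general pair of simple epithelia and are also made by acinar and islet cells, whereas *Krt19* is the more usual duct marker. *Cftr* encodes the chloride and bicarbonate channel of the duct surface, *Muc1* a membrane mucin of the same surface, and *Spp1* the secreted matrix protein osteopontin, which macrophages and stromal cells also make. Islet preparations can carry fragments of duct and acinar tissue. In bulk RNA, more cells of a type and more RNA per cell cannot be told apart.

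*Krt8* and *Krt18* are neighbours on chromosome 15 of the mouse genome (GENCODE M21 annotation of GRCm38). *Krt18* (ENSMUSG00000023043) spans chr15:102028180-102032027 on the plus strand and *Krt8* (ENSMUSG00000049382) chr15:101996698-102004482 on the minus strand, so that they are transcribed away from each other with starts 23698 bases apart. *Krt7* (ENSMUSG00000023039) lies on the same chromosome at chr15:101411043-101430313 on the plus strand. *Krt19* (ENSMUSG00000020911) is at chr11:100140810-100148665 on the minus strand. The plus strand holds *Cftr* (ENSMUSG00000041301) at chr6:18170687-18322768, *Spp1* (ENSMUSG00000029304) at chr5:104435118-104441050 and *Muc1* (ENSMUSG00000042784) at chr3:89229057-89233381.

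The upstream sequences below are shown because *Krt8* and *Krt18* both rose in R192H mice between diets and *Spp1* had another pattern. *Krt7* also rose in that comparison, and its sequence is not shown. A link between these sequences and the levels was not tested. They are RefSeq promoter sequences of GRCm38.p6, 5′ to 3′ on the strand of the gene, and end before the first annotated exon. *Krt8* covers chr15:102004483-102004592, *Krt18* chr15:102027966-102028179 and *Spp1* chr5:104434861-104435110. Capitals mark the letters of the TATA box and of the ETS core, described below the sequences.
Krt8: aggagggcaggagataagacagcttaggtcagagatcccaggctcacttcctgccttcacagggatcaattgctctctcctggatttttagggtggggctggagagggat
Krt18: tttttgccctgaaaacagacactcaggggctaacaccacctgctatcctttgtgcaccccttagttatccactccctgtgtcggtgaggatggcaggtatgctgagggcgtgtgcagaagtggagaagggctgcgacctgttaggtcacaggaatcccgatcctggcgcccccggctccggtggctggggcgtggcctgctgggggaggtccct
Spp1: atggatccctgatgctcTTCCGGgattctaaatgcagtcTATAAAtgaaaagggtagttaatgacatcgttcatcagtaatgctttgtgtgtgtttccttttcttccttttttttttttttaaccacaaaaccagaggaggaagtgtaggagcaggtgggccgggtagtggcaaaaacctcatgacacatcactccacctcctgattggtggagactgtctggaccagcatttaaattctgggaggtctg

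The 250 bases upstream of the RefSeq start were searched on both strands for TATAAA (the TATA box), for GGGCGG (the GC box), for CCGGAA (an ETS core) and for TGANTCA (an AP-1 site). Neither *Krt8* nor *Krt18* held any of these motifs. *Spp1* held the TATA letters and the ETS core once each, beginning 211 and 233 bases before its first start, and its second RefSeq start held none. *Muc1* held the TATA box 31 bases before its start and the GC box 2 times, *Krt7* held the GC box 4 times, and *Cftr* held it 6 times, some of them overlapping. An annotated *Krt7* exon begins after the first 82 bases of its window, and all 4 of its GC boxes lie beyond that point. Of 32851 mouse promoters, the share with the TATA box was 12.4%, with the GC box 32.7%, with the ETS core 12.0% and with the AP-1 site 6.75%. GC bases made up 76.4% of the *Cftr* window and 43.6% of the *Spp1* window, against a median of 52.4% over all promoters. *Krt19* was not among the promoter sequences.

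Values are given as CPM, the counts scaled to a common library total, after TMM normalization, each table on its own, and levels between genes are compared per kb of exon. By that scale (CPM per kb) the genes fell into a high and a low class in every mouse. In the first table *Krt18* was highest, from 47.9 to 99.9 with a median of 60.7, followed by *Krt8* from 34.1 to 64.9. *Spp1* followed at 8.30 to 30.4 and *Krt7* at 7.09 to 13.9. *Krt19* reached 0.349 to 2.54, *Muc1* 0.144 to 1.80 and *Cftr* 0 to 0.108. *Krt18* was above *Krt8* in 12 of 12 mice, and *Krt8* above *Spp1* in 12 of 12. *Spp1* was above *Krt7* in 9 of 12 and *Krt19* above *Muc1* in 8 of 12, so the order within these 2 pairs was not fixed. *Krt7* exceeded *Krt19*, and *Muc1* exceeded *Cftr*, in 12 of 12. The exon length of 7.05 kb used for *Krt7* counts every annotated transcript, which lowers its value per kb.

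**Figure D1:**
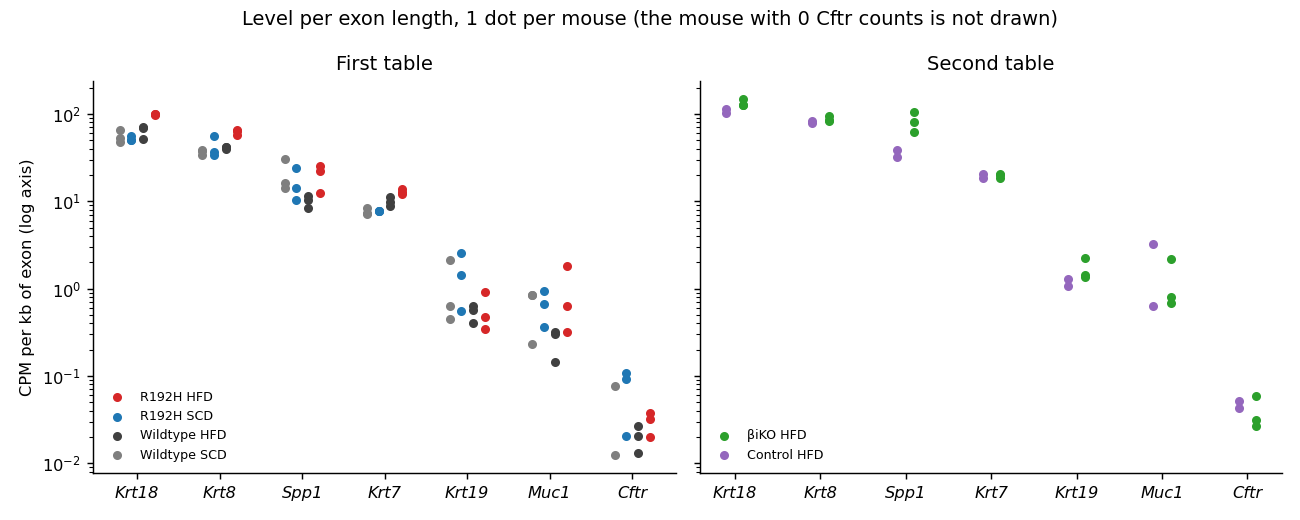
Level of the 7 genes as CPM per kb of exon on a log axis, 1 dot per mouse, coloured by group, with the first table on the left and the second on the right. In the first table *Krt18* lies between 47.9 and 99.9 in all mice, while *Krt19*, *Muc1* and *Cftr* stay at or below 2.54.

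The second table gave the same high and low classes, which were not compared in value with the first because each table was normalized on its own. *Krt18* was between 103 and 149 CPM per kb, *Krt8* between 77.8 and 94.8, *Spp1* between 31.9 and 104, and *Krt7* between 18.3 and 20.7. *Krt19* was between 1.07 and 2.26, *Muc1* between 0.636 and 3.22 and *Cftr* between 0.0268 and 0.0584. *Krt8* was above *Spp1* in 4 of 5 mice and *Krt19* above *Muc1* in 3 of 5.

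The 3 low genes rest on few counts. *Cftr* had 0 to 33 counts per mouse in the first table and 6 to 15 in the second. *Muc1* had 13 to 118 and 45 to 203 counts, and *Krt19* 21 to 185 and 60 to 137. A count of 3 corresponded to between 0.0724 and 0.126 CPM in the first table. The 0 counts of *Cftr* in wildtype SCD mouse 1 allow a level of up to 0.101 CPM. *Krt7*, *Krt8* and *Krt18* had at least 1447, 1875 and 1877 counts in every mouse of the first table.

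Some reads cannot be assigned to one gene. Of the windows of 100 bases in the *Krt8* transcript, 17.1% also occur in the pseudogene *Krt8-ps* or in the overlapping noncoding gene *Gm36026* on the other strand. For *Spp1* 5.85% occur in the overlapping *Gm42793*, and for *Cftr* 0.427% in its antisense gene *Gm15592*. No window of the *Krt7*, *Krt18*, *Krt19* or *Muc1* transcripts recurred in another gene. *Krt7* overlaps the antisense gene *Gm671* without sharing such a window. The kit keeps strand, but whether the counting used it is not given in the sources used here, so reads in the windows that *Krt8* and *Cftr* share with a gene on the other strand cannot be told apart.

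Totals ran from 24268157 to 42679645 counts per mouse in the first table and from 28618835 to 31887537 in the second. From 36.2% to 53.3% of each first-table library fell on 2 identifiers without a name in GENCODE M21, and the lowest TMM factor was 0.692. Markers of other cells were summed per mouse. Endocrine genes, led by *Ins2*, were abundant in all libraries, at 59620 CPM or more, which fits the label of isolated islets. The acinar list, led by *Cela2a*, *Pnlip* and *Cpb1*, was between 13400 and 26110 CPM in 9 mice and at 105700, 38680 and 40400 CPM in the 3 R192H HFD mice. R192H SCD mouse 1 stood apart with 407 CPM of the intestine list, against 53.9 and 43.8 CPM in the other mice of its group. It also had 23.3 CPM of *Krt20*, a keratin of gut epithelium, which was at 0 in the other mice of its group. Wildtype SCD mouse 2 stood apart with 433 CPM of the stroma list, against 139 and 177 CPM in its group.

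**Figure D2:**
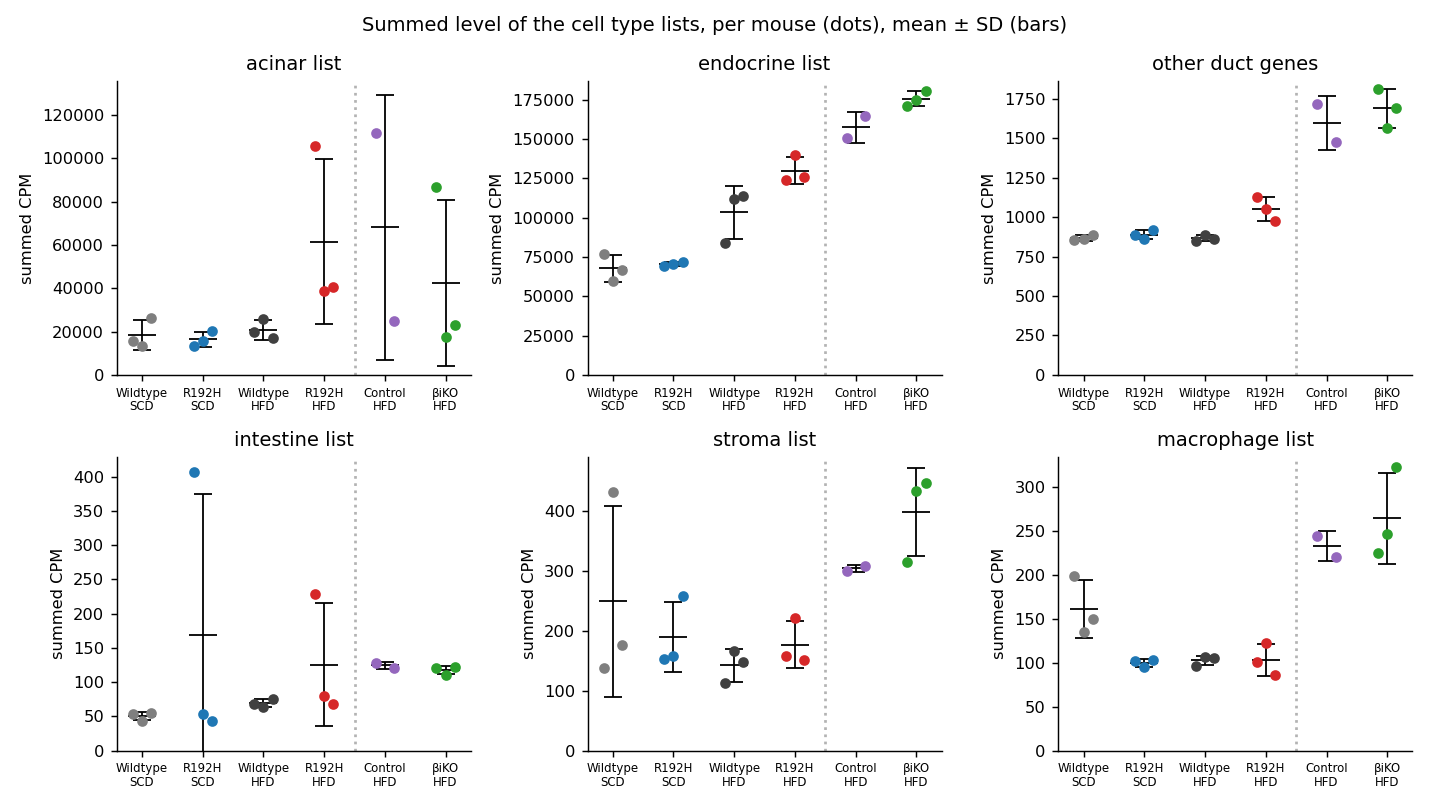
Summed CPM of 6 marker lists per mouse (dots) with the mean ± SD of each group (bars, cut at 0). The dotted line separates the tables, which were normalized separately. The acinar list is at 38680 CPM or more in the 3 R192H HFD mice and in 2 mice of the second table, and the intestine list is highest in 1 R192H SCD mouse at 407 CPM.

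Transcription factors and other genes that define duct cells were nearly absent. *Sox9*, a duct and progenitor factor, was between 0 and 1.13 CPM in the first table, and *Onecut1*, another, between 0 and 0.48 CPM. *Sctr*, the secretin receptor, was at most 0.24 CPM and *Aqp5*, a duct water channel, at most 0.21 CPM. Of a list of 38 other duct genes, 31 were tested in the first table and 33 in the second. The highest mean CPM over the 12 mice, not scaled for gene length, belonged to *Prom1*, between 92.0 and 226.7 CPM, *Anxa5*, between 119.1 and 173.4 CPM, and *Cdh1*, between 69.2 and 133.1 CPM. These encode a membrane protein of epithelia, an annexin and E-cadherin, and none is restricted to ducts.

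**Figure D3:**
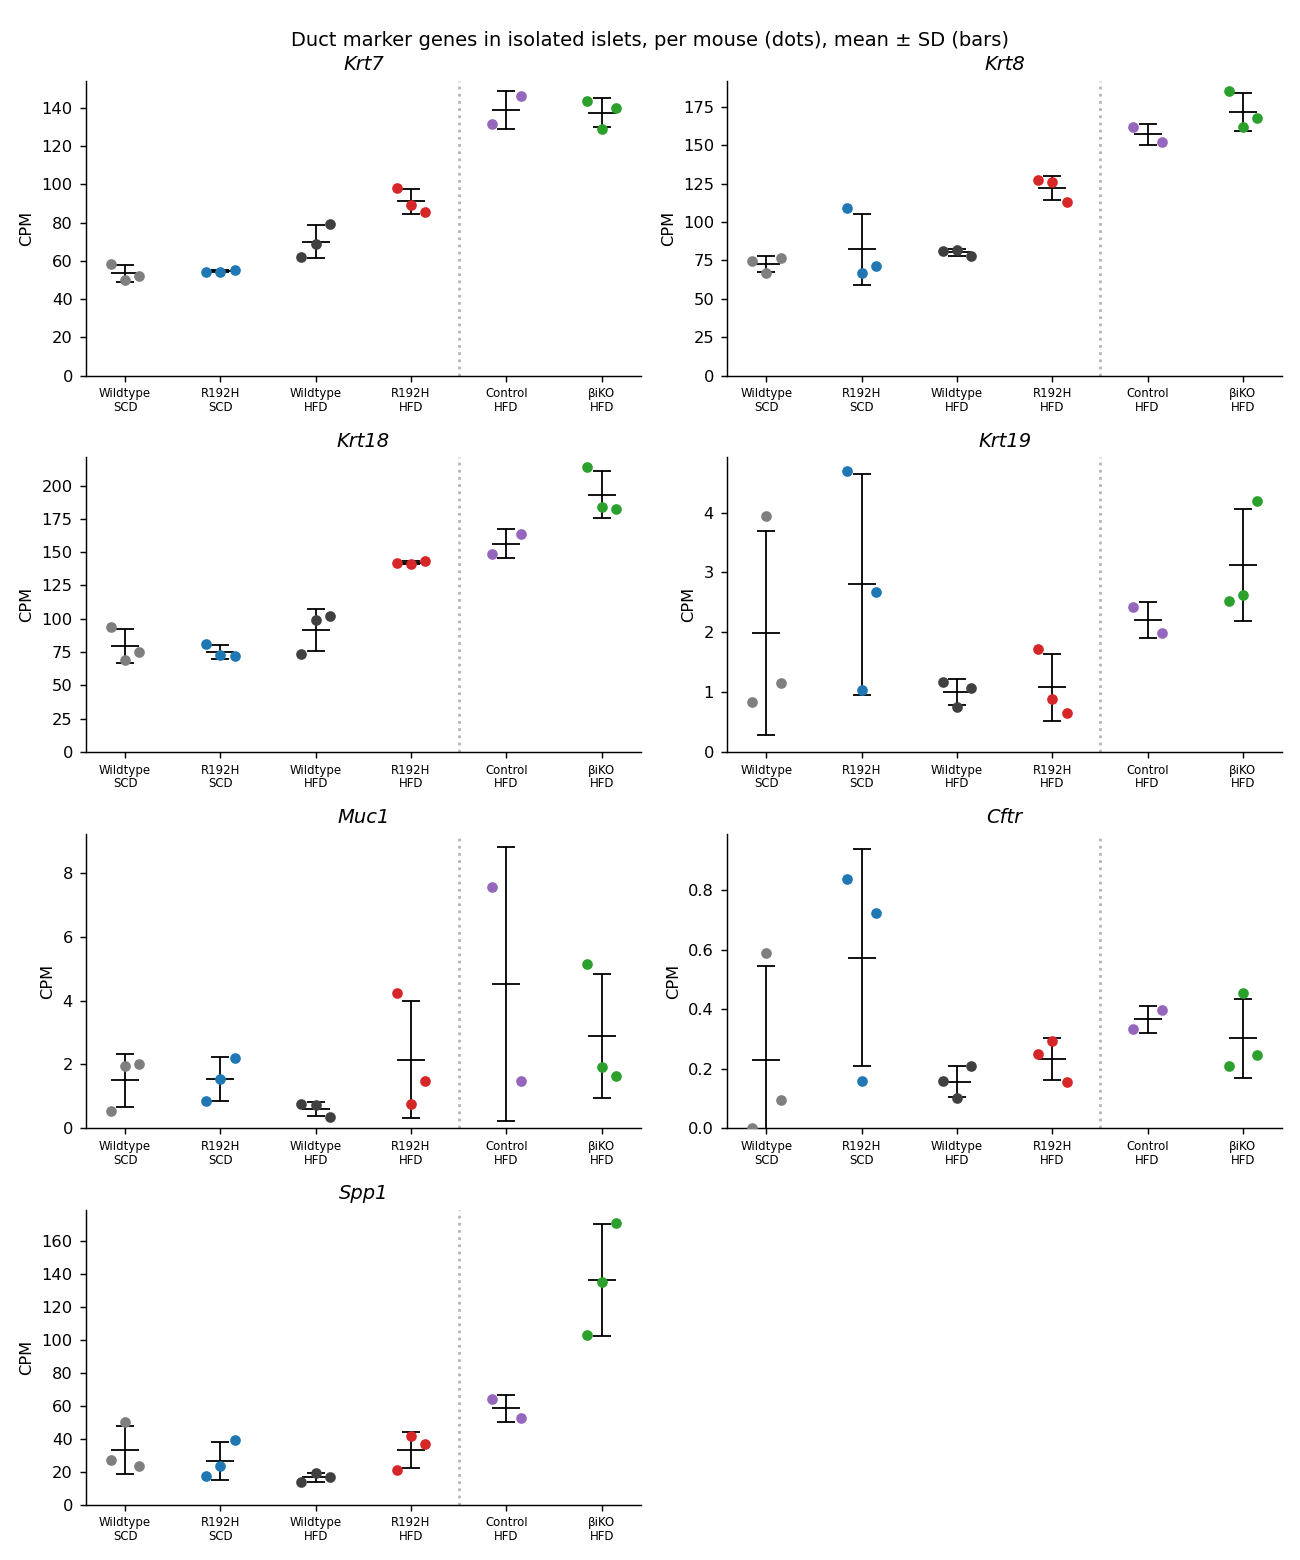
CPM of each of the 7 genes by group, each panel on its own linear axis from 0, with 1 dot per mouse and the mean ± SD as bars. The dotted line separates the 2 tables. The R192H HFD mice are above all other first-table mice for *Krt7*, *Krt8* and *Krt18*, and the *Pax4* βiKO mice are above both control mice for *Spp1*.

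*Pax4* R192H and wildtype mice on SCD were compared first, which asks whether the variant changes islets without metabolic stress. None of the 7 genes was called by edgeR's quasi-likelihood test, against 0% of all genes tested. To be called, a gene needed a Benjamini-Hochberg adjusted p below 0.05 and a log2 fold change beyond 0.5 in either direction. At an unadjusted p below 0.05 the count was also 0 of 7, against 3.29% of all genes, and DESeq2 called 0 of 7. Non-overlapping groups were likewise found for 0 of 7, against 7.83%.

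*Krt18* was 93.4, 68.9 and 75.4 CPM in the 3 wildtype SCD mice and 81.0, 72.4 and 71.7 CPM in the 3 R192H SCD mice (log2 fold change -0.08, SE 0.15). *Krt7* was 58.5, 49.99 and 51.9 CPM in wildtype and 54.3, 54.0 and 55.2 CPM in R192H mice. *Krt8* was 74.4, 66.9 and 76.5 CPM against 109.0, 66.7 and 71.6 CPM. The groups overlapped for all 7 genes, and the high *Krt8* value belonged to the mouse with the raised intestine list.

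*Krt19* was 0.84, 3.94 and 1.16 CPM in wildtype SCD mice and 4.70, 1.03 and 2.67 CPM in R192H SCD mice. *Cftr* was 0, 0.59 and 0.0966 CPM and 0.839, 0.158 and 0.725 CPM. *Spp1* was 26.9, 50.1 and 23.2 CPM and 17.1, 23.5 and 39.2 CPM. The highest value of each group for *Krt19* and *Cftr*, and of the wildtype group for *Spp1*, came from the 2 mice that stood apart on the stroma and intestine lists. *Muc1* was 0.54, 1.96 and 2.00 CPM and 0.86, 1.55 and 2.21 CPM (log2 fold change 0.02, SE 0.62). The SE was large for the low genes, at 0.99 for *Cftr* and 0.60 for *Krt19*.

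On HFD, the comparison of the genotypes under metabolic stress, *Krt18* was called higher in R192H mice and the other 6 genes were not. That is 1 of 7, against 2.28% of all genes called and 1.46% called higher. This background itself moved with single mice, from 280 higher and 157 lower to 61 and 32 without wildtype HFD mouse 3 and to 288 and 210 without wildtype HFD mouse 2, and DESeq2 called 617 and 330. *Krt18* was 73.5, 98.9 and 102.4 CPM in the 3 wildtype HFD mice and 141.8, 141.2 and 143.6 CPM in the 3 R192H HFD mice. All R192H mice were above all wildtype mice. The log2 fold change was 0.63 (SE 0.15), a 1.55-fold difference with an adjusted p of 0.0414 by edgeR.

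The partner keratins lay in the same direction without being called. *Krt8* was 81.3, 81.8 and 77.6 CPM in wildtype HFD mice and 127.1, 126.3 and 113.4 CPM in R192H HFD mice. Its log2 fold change was 0.61 (SE 0.16, edgeR adjusted p = 0.067), and DESeq2 called it at an adjusted p of 0.00948. *Krt7* was 62.0, 68.9 and 79.0 CPM against 98.0, 89.3 and 85.8 CPM, a log2 fold change of 0.38 (SE 0.12, edgeR adjusted p = 0.112). Neither gene overlapped between the genotypes.

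*Spp1* was 13.7, 19.0 and 17.03 CPM in wildtype HFD mice and 20.7, 41.9 and 37.0 CPM in R192H HFD mice, again without overlap. Its log2 fold change was 1.00 (SE 0.34, edgeR adjusted p = 0.153). *Muc1* was 0.75, 0.72 and 0.34 CPM against 4.22, 0.76 and 1.48 CPM, with a log2 fold change of 1.84 (SE 0.65, edgeR adjusted p = 0.167). One R192H mouse, at 0.755 CPM, was barely above the highest wildtype mouse, at 0.747 CPM. The mouse at 4.22 CPM had the highest acinar list of the first table, and without it the *Muc1* log2 fold change was 0.91. With the acinar list as a covariate it was -0.29 (adjusted p = 0.945), so its direction turned. DESeq2 called *Muc1* at an adjusted p of 0.0402. In all, 5 of 7 genes were higher without overlap, against 13% of all genes tested, and 5 of 7 had an unadjusted p below 0.05, against 15.9%.

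*Krt19*, the usual duct keratin, overlapped between the genotypes. It was 1.17, 0.75 and 1.07 CPM in wildtype HFD mice and 1.72, 0.88 and 0.65 CPM in R192H HFD mice (log2 fold change 0.11, SE 0.63, edgeR adjusted p = 0.961). Its sign turned without R192H HFD mouse 1, at -0.39, and with the intestine list as a covariate, at -0.48. *Cftr* was 0.160, 0.102 and 0.208 CPM against 0.251, 0.294 and 0.154 CPM (log2 fold change 0.53, SE 1.05). *Cftr* overlapped as well.

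Of the 31 other duct genes tested, 1 was called in this comparison, a share near the 2.28% of all genes. It was *Clu*, which encodes the secreted chaperone clusterin, at 60.6, 82.6 and 75.3 CPM in wildtype HFD mice and 149.7, 141.1 and 109.9 CPM in R192H HFD mice, a log2 fold change of 0.87 (SE 0.14, edgeR adjusted p = 0.00904). Of the 31 genes, 8 were higher without overlap, against 13% of all genes, and 2 were lower without overlap. Summed over the list, the other duct genes ran from 848.7 to 889.1 CPM in wildtype HFD mice and from 977.4 to 1126 CPM in R192H HFD mice, which did not overlap. The median log2 fold change was 0.61 over the 7 genes, 0.18 over the 31 other duct genes and -0.01 over all genes tested. *Tff2*, a secreted trefoil peptide, had a log2 fold change of 1.37 (SE 0.34, edgeR adjusted p = 0.0539) and was not called. In rising order its R192H HFD mice were at 63.3, 67.7 and 173.9 CPM, so 1 mouse stood far above the others. Wildtype HFD mice reached at most 49.8 CPM. Log2 fold changes over the 31 genes ran from -0.58 to 1.58.

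The acinar list did not overlap between these groups either, at 19980, 25980 and 16900 CPM in wildtype HFD mice and 105700, 38680 and 40400 CPM in R192H HFD mice, with 9 of 27 genes called higher. With the acinar list as a covariate the *Krt18* log2 fold change was 0.69 with an adjusted p of 0.629, and of all genes 0 were called. Endocrine genes summed to 84060, 112100 and 113800 CPM against 124000, 139700 and 125500 CPM, and R192H HFD mouse 1 had 229 CPM of the intestine list. Of 8 genes of β cell maturity, 3 were called lower, 6 were lower without overlap and 1 had a positive log2 fold change. Their median was -0.72, against -0.01 over all genes, and their part in the *Krt18* difference was not tested. The *Krt18* call was also lost when any 1 of the 6 mice was left out, with log2 fold changes from 0.50 to 0.72 and adjusted p-values from 0.0528 to 0.131. It was lost as well when library totals without the 2 most abundant identifiers replaced TMM, a scaling chosen after seeing the data. The median of all genes then moved to -0.29, called genes went from 280 higher and 157 lower to 149 higher and 1070 lower, and *Krt18* was 0.36, or 0.65 above that median (adjusted p = 0.12). *Krt8* and *Krt18* still did not overlap on this scale, while *Krt7*, *Spp1* and *Muc1* did.

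**Figure D4:**
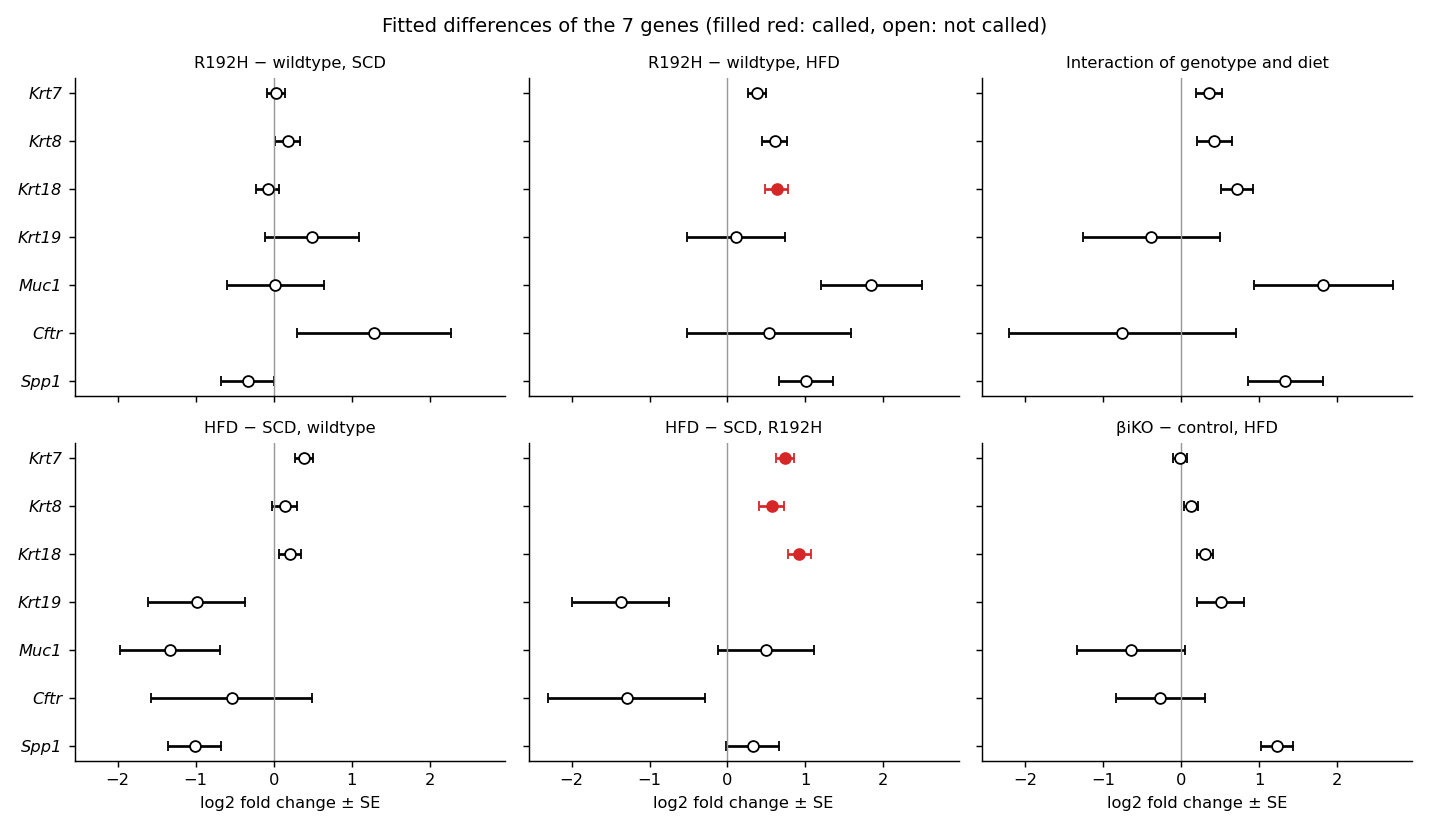
Log2 fold change ± SE of the 7 genes in the 6 comparisons from edgeR's quasi-likelihood model, with called genes in filled red and the others open. *Krt18* is called in R192H against wildtype on HFD (0.63), and *Krt7*, *Krt8* and *Krt18* in R192H mice between diets (0.74, 0.57 and 0.92). No gene is called in the other 4 comparisons.

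The interaction asks whether the genotype difference itself differed between diets. None of the 7 genes was called, against 0.131% of all genes, and 2 of 7 had an unadjusted p below 0.05, against 11.2%. Calls over all genes went from 17 higher and 8 lower to 0 and 0 without R192H HFD mouse 2 and to 67 and 34 without wildtype HFD mouse 2, and DESeq2 gave 216 and 102. The 2 genes with an unadjusted p below 0.05 were *Krt18*, at 0.71 on the log2 scale (SE 0.21, edgeR adjusted p = 0.199), and *Spp1*, at 1.33 (SE 0.48, edgeR adjusted p = 0.309). *Krt7* was at 0.35 (SE 0.17), *Krt8* at 0.42 (SE 0.23), *Muc1* at 1.82 (SE 0.89), *Cftr* at -0.76 (SE 1.45) and *Krt19* at -0.39 (SE 0.88). Without R192H HFD mouse 1 *Muc1* was at 0.89, without wildtype SCD mouse 2 *Cftr* was at -2.82, and without R192H SCD mouse 1 *Krt19* was at 0.25. DESeq2 also called none. On library totals without the 2 most abundant identifiers the median of all genes was -0.33, called genes went from 17 higher and 8 lower to 5 higher and 20 lower, and *Krt18* was 0.73 above that median. The difference in *Krt18* between genotypes on HFD is therefore not shown to differ from that on SCD.

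Between HFD and SCD in wildtype mice none of the 7 genes was called, against 0.371% of all genes, and DESeq2 called none as well. Calls over all genes went from 39 higher and 32 lower to 5 and 0 without wildtype HFD mouse 3 and to 77 and 48 without wildtype HFD mouse 1, and DESeq2 gave 182 and 365. An unadjusted p below 0.05 was found for 2 of 7, *Krt7* and *Spp1*, against 15.2%, and their differences had opposite signs. The diets did not overlap for *Krt7*, *Krt8* and *Spp1*, 3 of 7, against 17.9% of all genes. *Krt7* was 58.5, 49.99 and 51.9 CPM on SCD and 62.0, 68.9 and 79.0 CPM on HFD, all higher (log2 fold change 0.39, SE 0.12, edgeR adjusted p = 0.151). Endocrine genes also summed to more without overlap, at 76860, 59620 and 66980 CPM on SCD and 84060, 112100 and 113800 CPM on HFD, and their part in the *Krt7* difference was not tested.

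*Spp1* was 26.9, 50.1 and 23.2 CPM on SCD and 13.7, 19.0 and 17.03 CPM on HFD, all lower (log2 fold change -1.01, SE 0.34, edgeR adjusted p = 0.19). Without wildtype SCD mouse 2, which had the highest *Spp1* and stroma levels, the log2 fold change was -0.60 with an adjusted p of 0.591. *Krt19* (-0.99, SE 0.62) and *Muc1* (-1.33, SE 0.65) had negative log2 fold changes with overlapping groups, and *Krt19* without that mouse was at -0.01. *Cftr* was at -0.54 (SE 1.03) with overlapping groups, and at 1.53 without that mouse. *Krt8* and *Krt18* had log2 fold changes of 0.14 (SE 0.16) and 0.21 (SE 0.15). Lower values on HFD also ran through the stroma list, with 5 of 12 genes all lower, and the macrophage list, with 11 of 18 all lower, against 9.46% of all genes. With the macrophage list as a covariate the *Spp1* log2 fold change was -0.45 (edgeR adjusted p = 0.996), with 0 of all genes called. The part of the stroma and lymphoid lists was not tested. On library totals without the 2 most abundant identifiers the median of all genes was -0.11, called genes went from 39 higher and 32 lower to 31 higher and 85 lower, and *Spp1* was at -1.16.

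In R192H mice, 3 of the 7 genes were higher on HFD than on SCD and passed the test, *Krt7*, *Krt8* and *Krt18*, against 15.7% of all genes called and 9.75% called higher. Without R192H HFD mouse 2 the calls over all genes went from 1865 higher and 1131 lower to 1169 and 537, the fewest on leaving out 1 mouse. *Krt18* rose from 81.0, 72.4 and 71.7 CPM to 141.8, 141.2 and 143.6 CPM, a 1.89-fold change (log2 fold change 0.92, SE 0.15, edgeR adjusted p = 0.0014). *Krt7* rose from 54.3, 54.0 and 55.2 CPM to 98.0, 89.3 and 85.8 CPM, a 1.67-fold change (log2 fold change 0.74, SE 0.12, edgeR adjusted p = 0.00141). *Krt8* rose from 109.0, 66.7 and 71.6 CPM to 127.1, 126.3 and 113.4 CPM, a 1.48-fold change (log2 fold change 0.57, SE 0.16, edgeR adjusted p = 0.0279). None of these 3 keratins overlapped between diets, against 21.3% of all genes that were higher without overlap. *Krt8* did overlap on library totals without the 2 most abundant identifiers, where *Krt7* and *Krt18* did not.

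The 4 remaining genes overlapped between diets. *Krt19* was 4.70, 1.03 and 2.67 CPM on SCD and 1.72, 0.88 and 0.65 CPM on HFD, with a log2 fold change of -1.37 (SE 0.62, edgeR adjusted p = 0.147) in the direction opposite to the other keratins. Its highest SCD value belonged to R192H SCD mouse 1, which carried the intestine genes, and without that mouse the log2 fold change was -0.72 (adjusted p = 0.495). *Cftr* likewise had a negative log2 fold change, -1.29 (SE 1.01). *Spp1* was 17.1, 23.5 and 39.2 CPM and then 20.7, 41.9 and 37.0 CPM (0.32, SE 0.34). *Muc1* was 0.86, 1.55 and 2.21 CPM and then 4.22, 0.76 and 1.48 CPM (0.49, SE 0.62). Without R192H HFD mouse 1 the *Muc1* value was -0.44, so its direction rests on that mouse.

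Of the 31 other duct genes tested, 4 rose and 2 fell in R192H mice between diets, a share near the 15.7% of all genes called. *Clu* rose from 56.5, 63.6 and 67.7 CPM to 149.7, 141.1 and 109.9 CPM (log2 fold change 1.09, SE 0.15, edgeR adjusted p = 0.0005). *Tff2* (1.54, SE 0.34), *Ambp* (0.74, SE 0.18), which encodes a secreted protease inhibitor precursor, and *Cd44* (1.25, SE 0.38), the hyaluronan receptor, also rose. *Pkhd1*, the gene of the ciliary protein fibrocystin of duct epithelium, fell by 1.29 on the log2 scale (SE 0.27, edgeR adjusted p = 0.00623). *Tspan8*, a tetraspanin of epithelial membranes, fell by 0.58 (SE 0.14, edgeR adjusted p = 0.0138). The median over the 31 genes was -0.06, equal to that over all genes, and the median over the 7 genes was 0.49.

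The acinar list did not overlap here either, at 13530, 15570 and 20360 CPM on SCD, with 24 of 27 genes called higher, and with it as a covariate the log2 fold changes of *Krt7*, *Krt8* and *Krt18* were 0.68, 0.55 and 0.98 with adjusted p-values of 0.154, 0.357 and 0.111. Calls over all genes fell with this covariate to 74 higher and 12 lower. Endocrine genes summed to 69330, 70650 and 71490 CPM on SCD and 124000, 139700 and 125500 CPM on HFD, with 6 of 12 called higher. *Krt8* was no longer called without R192H SCD mouse 2 or 3 (adjusted p = 0.103 and 0.104) or without any 1 of the R192H HFD mice (adjusted p from 0.0524 to 0.0921). Without R192H SCD mouse 1, the one with the intestine genes, it reached 0.85. On library totals without the 2 most abundant identifiers the median of all genes was -0.50 and called genes went from 1865 higher and 1131 lower to 615 higher and 5009 lower. *Krt7*, *Krt8* and *Krt18* were then 0.29, 0.11 and 0.47, or 0.79, 0.61 and 0.97 above that median, and none of the 3 was called, whereas *Krt19* was called lower at -1.85 (adjusted p = 0.039). The contrasts of the first table share groups, and the R192H HFD mice enter both comparisons with calls.

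In the second table, of *Pax4* βiKO against control mice on HFD, which asks what loss of *Pax4* in adult β cells does, none of the 7 genes was called by edgeR, against 0.0893% of all genes. Calls over all genes went from 12 higher and 6 lower to 2 and 0 without control mouse 1 and to 16 and 12 without *Pax4* βiKO mouse 3, and DESeq2 gave 100 and 149. The gene with the largest difference was *Spp1*. It was 64.3 and 52.6 CPM in the 2 control mice and 102.9, 134.9 and 170.9 CPM in the 3 *Pax4* βiKO mice. All knockout mice were above both controls. The log2 fold change was 1.22 (SE 0.20), a 2.33-fold difference, with an unadjusted p of 0.000389 and an adjusted p of 0.13 by edgeR.

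The call on *Spp1* depended on the method. DESeq2 called it at an adjusted p of 1.77e-08. EdgeR called it on library totals without the 2 most abundant genes (1.27, adjusted p = 0.0308). Here these are *Ins2* and *Iapp*, with 8.68% to 11.1% of each library, and not the unnamed identifiers of the first table. Called genes went from 12 higher and 6 lower to 27 higher and 8 lower on those totals. With the macrophage list as a covariate edgeR called *Spp1* as well (0.90, adjusted p = 0.0317). Leaving out each mouse gave log2 fold changes from 1.03 to 1.39 with adjusted p-values from 0.0697 to 0.722. Macrophage genes summed to 244.9 and 221.1 CPM in controls and 224.9, 246.5 and 323.1 CPM in *Pax4* βiKO mice, which overlapped. Stroma genes summed to 300.7 and 309.0 CPM and 315.2, 434.1 and 448.3 CPM, which did not overlap, and their part in the *Spp1* difference was not tested.

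*Krt18* was 148.5 and 164.0 CPM in controls and 213.8, 183.6 and 182.2 CPM in *Pax4* βiKO mice, without overlap (log2 fold change 0.31, SE 0.10, edgeR adjusted p = 0.297). Endocrine genes, at 150500 and 164400 CPM against 171200, 175000 and 180700 CPM, and endothelium genes, at 256.7 and 252.8 CPM against 259.6, 304.2 and 310.6 CPM, did not overlap either, and their part in the *Krt18* difference was not tested. *Krt19* was 2.42 and 1.99 CPM and 2.53, 2.63 and 4.20 CPM, also without overlap (0.51, SE 0.30, edgeR adjusted p = 0.523). Without *Pax4* βiKO mouse 3 the *Krt19* value was 0.23, and with the macrophage list as a covariate it was 0.16. Higher values without overlap were found in 3 of 7 genes, against 15.9% of all genes, and 2 of 7 had an unadjusted p below 0.05, against 12.8%.

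*Krt7* differed little, at 131.7 and 146.0 CPM and 143.7, 128.8 and 139.7 CPM (log2 fold change -0.01, SE 0.09). *Krt8* was 162.1 and 152.3 CPM and 185.6, 162.0 and 167.7 CPM (0.13, SE 0.09). *Muc1* was 7.55 and 1.49 CPM and 5.13, 1.91 and 1.62 CPM. In each group its high value came from the mouse with the highest acinar list, at 111500 CPM in control mouse 1 and 86590 CPM in *Pax4* βiKO mouse 1, against 17660 to 24830 CPM in the other 3 mice. *Cftr* was 0.335 and 0.398 CPM and 0.208, 0.454 and 0.245 CPM (-0.27, SE 0.57). None of the 33 other duct genes tested was called, and 8 had an unadjusted p below 0.05, 4 higher and 4 lower, against 12.8% of all genes in either direction.

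Across the 12 mice of the first table the 7 genes did not vary as one set. Pearson's r of log2 CPM was 0.94 between *Krt7* and *Krt18*, 0.82 between *Krt8* and *Krt18* and 0.76 between *Krt7* and *Krt8*. *Krt19* varied with *Cftr* (r = 0.81) and not with *Krt18* (r = -0.48). *Cftr* had 33, 22 and 19 counts in R192H SCD mouse 1, wildtype SCD mouse 2 and R192H SCD mouse 3. It had at most 8 in every other mouse. The same mice had the highest *Krt19*, and the first 2 of them stood apart on the intestine and stroma lists. *Spp1* and *Muc1* had an r between -0.03 and 0.35 with each of the other genes. These are descriptions over mice that share groups and normalization.

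The genes nearest to each in pattern, out of 13640 with a mean of at least 1 CPM, differed as well. For *Krt18* they were *Psmb6* and *Atp5o* (both r = 0.99), a proteasome subunit and an ATP synthase subunit, and *Fam114a1* (0.98). For *Krt7* they were *Selenom* (0.98), *Ndufb7* and *Tmem59l* (both 0.97), and for *Krt8* *Gldc* (0.92), *Exog* and *Ppih* (both 0.91). For *Spp1* they were *Mgp* (0.94), *Col5a2* and *Serpine2* (both 0.91), of which the first 2 encode matrix proteins. *Krt19* was nearest to *Sap130* (0.88), an unnamed gene and *Abcg2* (both 0.87). *Cftr* was nearest to *1700120C14Rik* (0.92), *Gm14288* (0.89) and *Abcb1a* (0.87), and *Muc1* to *Cyp39a1* (0.94), *Ptger3* (0.93) and *Ntn1* (0.90). With the level of each group removed, r was 0.94 for *Krt18* and *Psmb6*, 0.94 for *Spp1* and *Mgp*, 0.75 for *Krt7* and *Selenom* and 0.66 for *Krt8* and *Gldc*.

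Against the cell type lists, *Krt7* and *Krt18* followed the endocrine list most closely of the 10 other lists (r = 0.97 and 0.92), with 0.80 and 0.77 for the acinar list and 0.78 and 0.80 for the other duct genes. *Krt8* had r = 0.83 with the other duct genes, 0.72 with the acinar, 0.71 with the endocrine and 0.69 with the intestine list. *Spp1* had r = 0.79 with the stroma list and 0.05 with the acinar list. *Krt19* and *Cftr* had r = 0.52 and 0.55 with the stroma list and -0.59 and -0.19 with the endocrine list, and *Cftr* had r = 0.56 with the endothelium list. *Muc1* had r = -0.75 with the list of β cell maturity genes and 0.50 with the acinar list.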

How the data were processed

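Bulk RNA-seq of islets from 17 mice in 2 tables was analysed. Groups came from the sample labels, and every mouse was used. Per the study's methods, the authors sequenced stranded total RNA as paired 100-base reads and aligned them to mm10 with STAR 2.7.1. Transcript abundance was estimated with RSEM 1.3.3 and summed to genes with tximport, and the deposited values are these expected counts, not scaled for depth. Their annotation release is not given in the sources used here. RSEM divides reads that match several genes, so values need not be whole, and they were rounded for testing.

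The 7 genes and all lists were chosen by hand with earlier results of these data known. Each table was fitted on its own with edgeR 4.0.16 (R 4.3.3, limma 3.58.1) by the quasi-likelihood F-test, with a coefficient per group, TMM normalization and filterByExpr at a minimum count of 10. P-values were adjusted over all genes tested. The thresholds were 0.05 for the adjusted p and 0.5 for the log2 fold change in either direction, and the prior count for log2 CPM was 2. Each comparison gives all 7 genes, along with called genes of the other duct list, the most abundant of that list and the 3 genes of highest Pearson's r with each. GENCODE M21 matched 65.8% and 66.7% of identifiers. Alternatives included DESeq2 1.42.0. The labels do not say how the islets of each mouse were pooled or prepared, so p-values measure the spread between these samples. The floor of 3 counts covers counting error only, whereas standard errors include the spread between mice.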

Additional observations from a re-analysis of the deposited data

How the results depend on the processing

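Of 749 log2 fold changes of the 7 genes under the alternatives, 710 stayed on their side of the thresholds, most of them uncalled throughout, 16 gained a call, 23 lost one and 0 called values changed sign. A further 32 values of 15 uncalled results changed sign without being called in either fit. For R192H against wildtype on HFD, where 1 gene was called, 4 were called with no filter on low counts, 2 with at least 10 counts in every sample, 3 by DESeq2, and 0 with an acinar, macrophage or intestine covariate or on library totals without the 2 most abundant identifiers. Leaving out 1 mouse gave 0 to 0. For R192H mice between diets, where 3 were called, 0 were called with the acinar covariate and 1 on those totals, and leaving out 1 mouse gave 2 to 3. The interaction and the diet comparison in wildtype mice, with 0 called, each gave 1 with no filter, *Spp1*. Calls over all genes with no filter were 464 higher and 244 lower for the interaction and 283 and 641 for that diet comparison. For *Pax4* βiKO against control, with 0 called, *Spp1* was called with no filter, with the macrophage covariate, by DESeq2 and on those totals. The totals here left out *Ins2* and *Iapp*. Calls over all genes went from 12 higher and 6 lower to 335 and 362, 10 and 3, 100 and 149, and 27 and 8 in that order. The cause was not tested. Leaving the 2 most abundant identifiers out under TMM raised CPM levels 1.83 to 1.85 times in the first table and 1.11 times in the second, by construction. With the replicate number as a block, 0 of the 7 genes were called in R192H against wildtype on HFD and 1 in *Pax4* βiKO against control. The labels do not say whether equal numbers mark paired mice. The r of same-numbered mice was between -0.30 and 0.19 and over 0.1 in 4 of 20 pairs. Mice of different numbers had r from -0.31 to 0.40, so these values cannot show or exclude pairing. Without wildtype SCD mouse 2 and R192H SCD mouse 1 together, chosen after seeing the data, 6 of the 7 genes were tested and the counts called were as before in the 4 comparisons refitted (0, 0, 0 and 3), while over all genes the calls of the interaction went from 17 higher and 8 lower to 0 and 0 and those of wildtype mice between diets from 39 and 32 to 25 and 16. Counts of 33 or fewer limit *Cftr*.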
